A study of Solanum lycopersicum with 12 samples.

Results

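The salt response of the wild tomato accession PI365967 was measured as the change between whole plants kept for 5 h in nutrient solution with 200 mM NaCl and whole plants kept for 5 h in the same solution with 0 mM NaCl. The comparison took 6 of the 12 arrays of the series, 3 of stressed and 3 of unstressed PI365967, chosen by genotype, treatment and time as the sample labels give them. PI365967 is known as a salt-tolerant wild tomato, although the labels enter every sample as Solanum lycopersicum. The other 6 arrays held the cultivar Moneymaker under the same treatments, 3 per group, and serve here only where the salt responses of the 2 genotypes are set against each other. Plants were 4 weeks old when they were moved from sand to hydroponic tanks, and had 6 true leaves after 3 d of acclimation. RNA of 3 plants was pooled for each array, which makes the replicates separate pools of plants, and the spread between plants within a pool was not measured. The labels give whole plants as the tissue, so organs were not separated, and each group is 1 genotype at 1 dose and 1 time.

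Salt in the root medium lowers the water potential around the plant and brings in sodium and chloride. In tomato, as in other plants, the early response includes synthesis of abscisic acid (ABA), which acts through bZIP transcription factors on genes for dehydrins, lipid transfer proteins and compatible solutes. Ethylene and jasmonate synthesis can rise as well, sodium is moved out of the cytosol by antiporters that draw on the proton gradient of H+-ATPases, and growth slows through gibberellin, auxin, cell wall and cell cycle genes.

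Transcript signal was read on an Affymetrix tomato array. Values are on the scale log2(intensity + 16) after quantile normalization of the 12 arrays, and a change is the mean of the 3 salt arrays minus the mean of the 3 control arrays. On this scale the change of weak probe sets is understated. A probe set was called changed when its p-value, from limma fitted to all 12 arrays and adjusted by Benjamini-Hochberg over 10101 probe sets, was under 0.05. A value after ± is the standard error of the change, with n = 3 arrays per group throughout. Between replicate PI365967 arrays Pearson's r over all probe sets was 0.9918 to 0.9946, against 0.949 to 0.9569 between a control and a salt array. The median SD between replicates was 0.107 for control and 0.13 for salt arrays, and the salt arrays varied more than the control arrays for 58.9% of probe sets. Over the 1036 probe sets called with at least a 2-fold change, the 3 salt arrays lay at a median of 98.46%, 98.72% and 102.4% of the mean change. The same 3 arrays set that mean, and calling favours probe sets on which they agree. Closeness to the mean was therefore partly built in. The GAPDH probe set at the 3′ end exceeded that at the 5′ end by 0.03 to 0.06 in the PI365967 control arrays and 0.06 to 0.14 in the salt arrays. For actin the same difference overlapped, at −0.05 to 0.09 in the control arrays and −0.06 to 0.09 in the salt arrays.

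Organ markers were read as a check on the labelled tissue. Green tissue was well represented, with all 7 of its marker probe sets at a mean signal of 12.3 or more. The root markers were less even, with a median of 11.3 in the controls. They ran from 6.09 for NRAMP1 to 12.5 for TPx1 and for PT1, a root phosphate transporter gene. TPx1 was taken as the root peroxidase TPX1 by its symbol alone, and this identity was not checked. The summed intensity of the green tissue markers ran from 68390 to 70620 over the control arrays and from 55270 to 57290 over the salt arrays, with 0 of 7 higher and 4 lower. That of 9 root markers ran from 21190 to 22180 and from 15320 to 16350, with 0 higher and 6 lower. For 10 probe sets of dividing tissue the ranges were 8264 to 8875 and 5422 to 6397, with 0 higher and 8 lower. Over the whole array 23.3% of probe sets were higher and 24% lower. In RNA of whole plants, fewer cells of a type and less RNA per cell cannot be told apart. The part that organ makeup has in the changes below was not tested. The array also carries 63 probe sets labelled RPTR (reporter sequences by their name). They had a median signal of 4.31 in the controls and 4.29 under salt, and 3 of the 63 were called. Their group means reached 5.98. Among the called genes described below, the control mean lay within that range for SNF4, ACS2, DREB1, E8, EREB, CEVI57 and both unnamed probe sets that rose most, and the salt mean for GA20OX1, 20ox-3, DFR, TSB and CycB2. The weaker group of these genes cannot be told from background, so the sizes given for them, and their places in an order by size, hold on this scale only.

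Over the whole array, 4781 of 10101 probe sets were called in PI365967, which is 47.3%. The calls were divided almost evenly, with 2353 higher under salt (23.3%) and 2428 lower (24%), and the median change of all probe sets was −0.0037. Without normalization between arrays 1983 probe sets were called, so that calls of small changes rest on it. Most calls were small. The median size was 0.57 among both the rises and the falls, and 1205 of the rises (51.2%) and 1263 of the falls (52%) were under 1.5-fold. A change of at least 2-fold was called for 511 probe sets upward (5.06%) and 525 downward (5.2%). Large changes were more often rises, with 115 rises and 84 falls of at least 4-fold, and 29 rises and 9 falls of at least 8-fold. All 3 salt arrays lay above all 3 control arrays for 2764 probe sets (27.4%) and below them for 2928 (29%), together 56.4%.

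**Figure D1:**
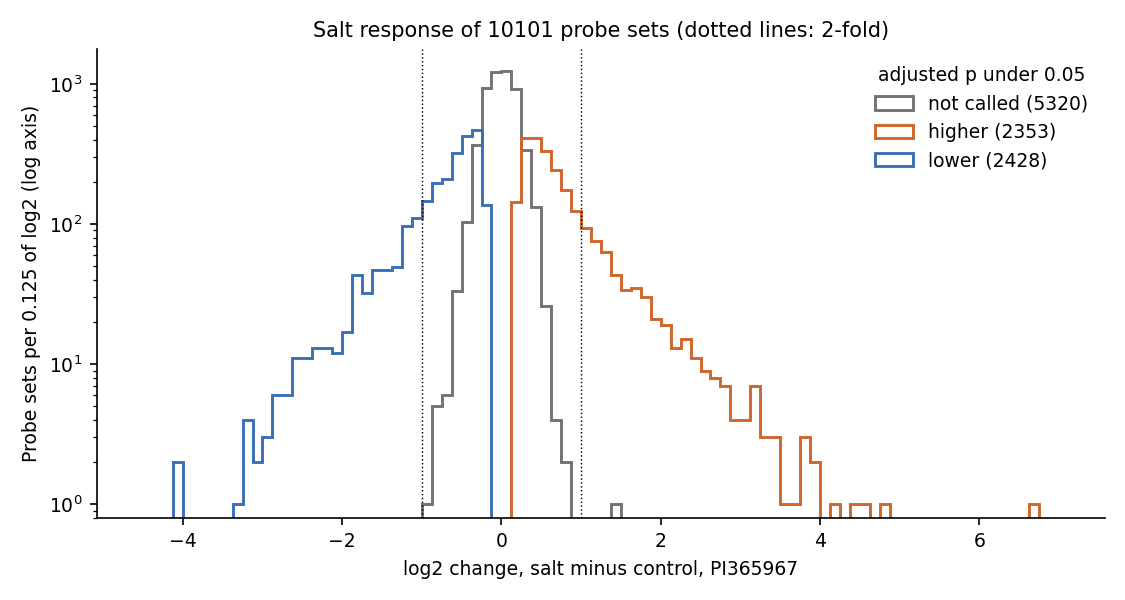
Distribution of the salt response of PI365967 over 10101 probe sets. The x axis is the log2 change, salt minus control, the y axis the number of probe sets per bin on a log axis, and each line is a class of call: 2353 higher, 2428 lower and 5320 not called. The called classes reach 6.69 upward and −4.05 downward.

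The named genes with the largest changes were ranked on 1 probe set per gene, that with the strongest mean signal. The largest rise by this rule was that of GolS-1, galactinol synthase, which makes the galactosyl donor for raffinose-family sugars. Its signal was 6.62, 7.47 and 6.12 on the control arrays and 11.38, 11.20 and 10.997 on the salt arrays, a 21.9-fold rise (log2 4.45 ± 0.27, adjusted p = 2.73e-07). The controls spread over more than 1 log2 unit, and the salt arrays lay far above all of them. SNF4, which encodes the activating subunit of the SnRK1 energy-sensing kinase complex, went from 5.83, 5.53 and 5.40 to 9.99, 9.81 and 9.54 (log2 4.19 ± 0.14, adjusted p = 8.45e-09). The gene of the carotenoid-cleaving enzyme that limits ABA synthesis, NCED1 (9-cis-epoxycarotenoid dioxygenase), went from 8.25, 8.55 and 7.67 to 11.83, 11.64 and 11.99, a 12.7-fold rise (log2 3.66 ± 0.18, adjusted p = 8.05e-08). ACS2, an ACC synthase that makes the precursor of ethylene, went from 5.65, 5.59 and 5.91 to 8.92, 8.79 and 9.29 (log2 3.29 ± 0.18, adjusted p = 1.76e-07). DREB1, a transcription factor gene that binds dehydration-responsive elements, went from 5.30, 5.44 and 5.22 to 8.29, 8.33 and 7.83 (log2 2.83 ± 0.20, adjusted p = 6.53e-07). For these 5 genes the groups were separated by more than 2 log2 units and no array fell between them. The control levels of SNF4, ACS2 and DREB1 were inside the range of the RPTR probe sets. FESOD, iron superoxide dismutase, is not in this ranking because its stronger probe set fell slightly, although its weaker one rose by 3.76 ± 0.19.

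Other genes among the 15 largest rises in this ranking were AOS (log2 2.63 ± 0.19), the allene oxide synthase of jasmonate synthesis, ER5 (2.62 ± 0.20), a late embryogenesis abundant-like protein gene first known as ethylene-responsive, and ETR6 (2.55 ± 0.12), an ethylene receptor gene. The chitinase gene CHI17 rose 5.46-fold, from between 9.87 and 10.33 to between 12.41 and 12.63. PPCK1, the kinase that activates phosphoenolpyruvate carboxylase, rose 5.42-fold, and the β-galactosidase gene TBG4 rose 5.4-fold. The list closed with ER24 (2.13), a transcriptional coactivator gene, the bZIP genes AREB1 (2.13) and abz1 (2.00), and ER21 (2.09). All of these calls held under each of the 22 alternatives of processing tried.

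**Figure D2:**
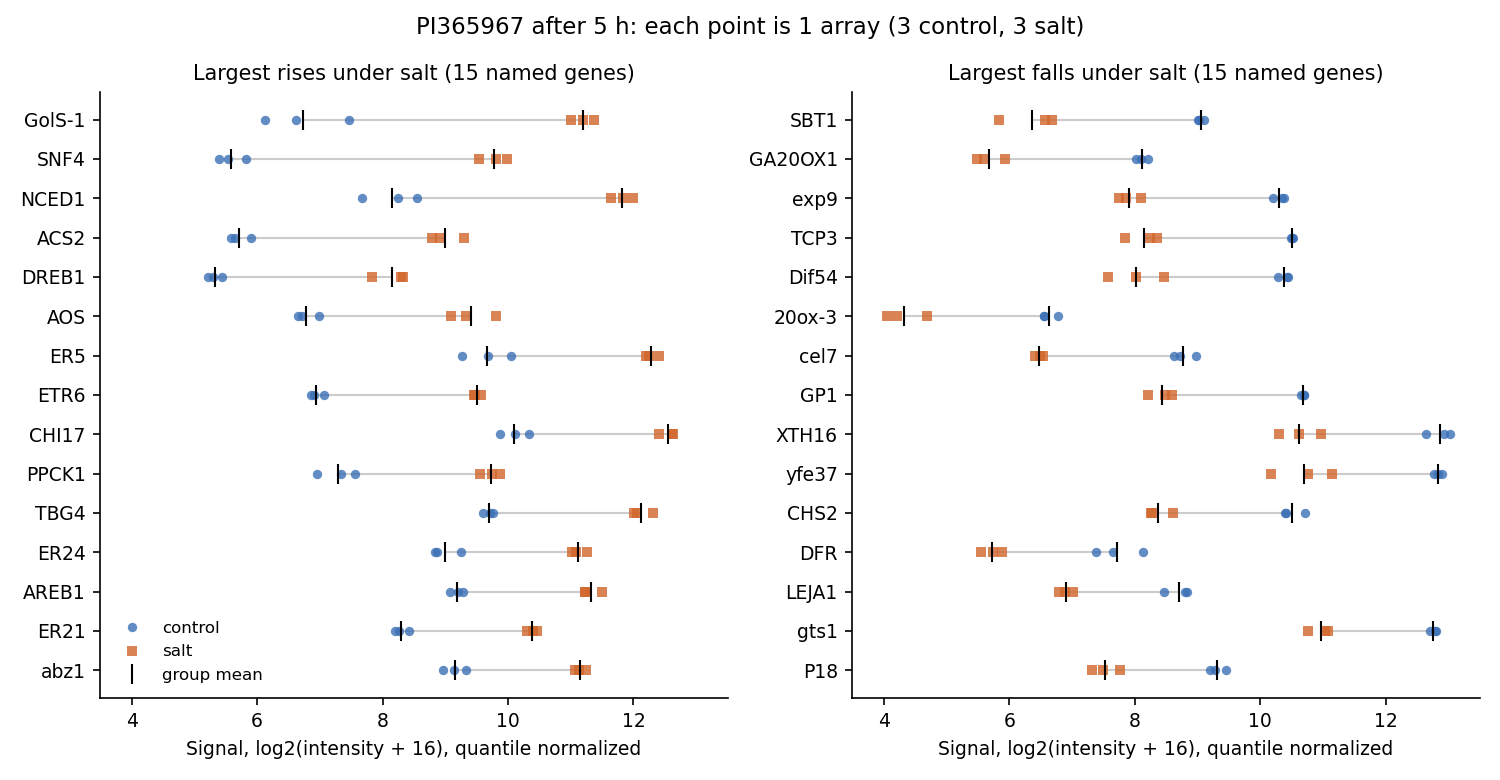
Signal of the 15 largest named rises (left) and the 15 largest named falls (right) in PI365967, 1 gene per line. The x axis is the signal, log2(intensity + 16) after quantile normalization, each circle a control array, each square a salt array, and each bar a group mean of 3 arrays. In every gene shown the salt arrays lie on one side of all control arrays, which the choice of these genes required.

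The largest fall in the same ranking was that of SBT1, a subtilisin-like protease gene, which read 9.03, 9.11 and 9.02 on the control arrays and 5.84, 6.57 and 6.67 under salt. It fell by 2.69 ± 0.22 on the log2 scale, or 6.46-fold (adjusted p = 2.66e-06). XTH16, described below with the wall genes, fell by 2.76 ± 0.12 on a probe set that was not its strongest. TCP3, of the TCP family of transcription factors that set leaf cell division, went from 10.52, 10.50 and 10.49 to 8.35, 7.84 and 8.24 and so fell by 2.36 ± 0.23 (adjusted p = 8.57e-06). CHS2, a chalcone synthase of flavonoid synthesis, fell by 2.12 ± 0.22, and DFR, dihydroflavonol reductase of the anthocyanin branch, fell by 2.00 ± 0.31. P18, deoxyuridine triphosphatase, which keeps uracil out of DNA, fell by 1.79 ± 0.14 from between 9.20 and 9.46 to between 7.32 and 7.76. Falls among the 15 largest that are not described by group below were those of Dif54, which fell by 2.36 ± 0.22, GP1 by 2.25 ± 0.09, yfe37 by 2.13 ± 0.19 and gts1 by 1.80 ± 0.22. No role is given for these 4 genes here.

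Among probe sets without a gene in the annotation, larger changes occurred than in any named gene. Les.3752.1.S1_at read 4.17, 5.03 and 5.31 on the control arrays, a mean in the lowest 10% of PI365967 group means, and 11.55, 11.69 and 11.34 under salt, the largest rise on the array (log2 6.69 ± 0.24). LesAffx.48174.1.S1_at rose by 4.83 ± 0.26, from between 5.25 and 5.37 to between 9.59 and 10.43. Downward, Les.4710.1.S1_at fell by 4.05 ± 0.26 and LesAffx.44139.1.S1_at fell by 4.02 ± 0.15, from between 10.09 and 10.26 to between 5.97 and 6.23.

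Of the 6 probe sets of ABA synthesis, 1 rose and 3 fell, where 23.3% and 24% of all probe sets did, and the median change was −0.30. The rise was that of NCED1, given above. ZEP, zeaxanthin epoxidase, which acts upstream of it on the carotenoid precursor, read 11.25, 11.27 and 11.23 in the controls and 11.002, 10.76 and 10.72 under salt and fell by 0.42 ± 0.12 (adjusted p = 0.0112). Downstream, the aldehyde oxidase genes AO1 and TAO3 fell by 0.99 ± 0.11 and 0.60 ± 0.13. For AO1 all salt arrays (9.18 to 9.39) lay below all control arrays (10.15 to 10.37). FLACCA, the molybdenum cofactor sulfurase that aldehyde oxidase needs, was not called at a change of 0.08 ± 0.10, and neither was TAO2 at −0.18 ± 0.17, whose signal lay in the lowest 10% in both groups. Without normalization between arrays the calls of ZEP and TAO3 were lost.

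Proteins induced by ABA and water stress were read on 5 probe sets, and all of them rose, with a median of 0.86, where 23.3% of all probe sets rose. After ER5, which went from between 9.27 and 10.04 to between 12.19 and 12.41, the largest change was that of TAS14, the tomato dehydrin, which went from 12.36, 12.78 and 12.30 to 13.62, 13.59 and 13.46 (log2 1.08 ± 0.13, adjusted p = 4.61e-05). LEA14 rose by 0.86 ± 0.07, and the lipid transfer protein genes LE16 and TSW12 rose by 0.69 ± 0.10 and 0.27 ± 0.07. In all 5 genes the salt arrays lay above the control arrays, a pattern that 27.4% of all probe sets had. The call of TSW12 was lost without normalization between arrays and with median centring in its place.

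Of the 27 probe sets of stress transcription factors (DREB, bZIP, NAC, MYB, MYC and WRKY), 16 rose, 1 fell and 10 were not called. Over the array 23.3% of probe sets rose and 24% fell. The median of the list was 0.57. AREB1, which binds ABA-responsive elements, read 9.08, 9.28 and 9.21 in the controls and 11.50, 11.23 and 11.23 under salt (log2 2.13 ± 0.12, adjusted p = 1.54e-07). The bZIP gene abz1 went from between 8.97 and 9.33 to between 11.07 and 11.25, the NAC gene JA2 from between 10.46 and 10.93 to between 12.40 and 12.57 (log2 1.74 ± 0.15) and the MYB gene THM16 from between 7.31 and 7.81 to between 9.08 and 9.54 (log2 1.74 ± 0.18). None of these ranges overlapped. MYC2, the central transcription factor of jasmonate signalling, was not called at −0.12 ± 0.12, nor was bZIP1 at −0.04 ± 0.09.

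Ethylene genes were read at 3 levels. In synthesis, 6 of 16 probe sets rose and 3 fell, where 23.3% and 24% of all probe sets did, with a median of 0.21. Of the 6 rises, 4 were in ACC synthase genes. Besides ACS2, ACS3 went from 6.60, 7.03 and 7.15 to 8.03, 8.06 and 8.07 (log2 1.13 ± 0.13), ACS1A rose by 0.86 ± 0.10 and ACS6 by 0.72 ± 0.25. E8, a dioxygenase gene related to ACC oxidase, rose by 0.90 ± 0.15. The ACC oxidase genes, of the last step, were divided: ACO4 rose and all 3 probe sets of ACO6 fell, calls that were lost without normalization between arrays. ACS6 read 7.72, 7.53 and 7.54 in the controls and 7.91, 8.12 and 8.94 under salt, so that 1 salt array carried much of the change. Its call was lost without salt replicate 3 at 0.41 (adjusted p = 0.102), and without control replicate 2 or 3 at 0.69 (adjusted p = 0.0774) and 0.70 (adjusted p = 0.0773). The S-adenosylmethionine synthetase genes SAM1 and SAM3, which supply the substrate, were not called at 0.09 ± 0.07 and 0.13 ± 0.06.

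Of the 16 probe sets of ethylene receptors and signalling, 6 rose and 1 fell, against 23.3% and 24% of all probe sets. The median was 0.16. The receptor gene ETR6 read 7.07, 6.91 and 6.86 in the controls and 9.56, 9.46 and 9.47 under salt (log2 2.55 ± 0.12, adjusted p = 7.28e-08), with little spread in either group. ETR4 rose by 0.92 ± 0.10 and ETR3, the receptor of the Never-ripe locus, by 0.71 ± 0.09. Downstream, the transcription factor gene EIL3 rose by 0.53 ± 0.09 and TCTR2, a CTR-type kinase gene, by 0.45 ± 0.07, calls that were lost without normalization between arrays. EIL1 and EIL2 were not called at 0.04 ± 0.07 and 0.11 ± 0.07.

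Among 17 probe sets of ERF-type and other ethylene-related regulators, 8 rose and 4 fell, against 23.3% and 24% of all probe sets. The median was 0.31. ER24 went from 8.84, 8.87 and 9.25 to 11.01, 11.09 and 11.26, and erf1a and EREB rose by 0.95 ± 0.16 and 0.98 ± 0.18. Falls occurred in the same family, with ERF-H1 going from 8.84, 8.61 and 9.02 to 7.02, 7.60 and 6.89 (log2 −1.66 ± 0.18) and ERF4 from 9.68, 9.91 and 9.15 to 8.13, 8.12 and 8.06 (log2 −1.48 ± 0.17). ERF2 and JERF1 were not called at −0.03 ± 0.09 and 0.10 ± 0.07.

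Of the 26 probe sets of jasmonate and wound response, 4 rose, 9 fell and 13 were not called, with a median of −0.18. Over the array 23.3% of probe sets rose and 24% fell. The early steps of synthesis rose: loxD, a 13-lipoxygenase gene, from 9.25, 9.28 and 9.62 to 10.88, 10.72 and 10.73 (log2 1.39 ± 0.12, adjusted p = 2.75e-06), and AOS from 6.72, 6.99 and 6.65 to 9.09, 9.34 and 9.81. AOC, the allene oxide cyclase of the step after AOS, was not called at 0.03 ± 0.13. Among the falls, LEJA1 fell by 1.80 ± 0.15, the arginase gene ARG2 by 1.22 ± 0.32 and the fatty acid α-dioxygenase gene ALPHA-DOX2 by 1.19 ± 0.16, the last a call that the authors' deposited second set of values did not give. LAPA1, the wound-induced leucine aminopeptidase, had a high signal in both groups (13.10 to 13.19 and 13.24 to 13.30) and was not called.

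Ion transport was read on 7 probe sets, of which 3 rose and 1 fell, where 23.3% and 24% of all probe sets did. The median was 0.15. NHX1, the antiporter that exchanges sodium or potassium for protons at the vacuole, read 6.22, 6.31 and 5.96 in the controls and 7.65, 7.45 and 7.52 under salt, a 2.6-fold rise (log2 1.38 ± 0.13, adjusted p = 6.28e-06). LHA1, a plasma membrane H+-ATPase, was at 10.81, 10.83 and 10.82 in the controls, nearly the same on all 3 arrays, and at 12.26, 12.17 and 11.94 under salt (log2 1.30 ± 0.09, adjusted p = 7.1e-07). The related genes LHA2 and NHX2 were not called at −0.10 ± 0.07 and 0.15 ± 0.15. LKT1, an inward-rectifying potassium channel gene, fell by 0.50 ± 0.13, a call that was lost without normalization between arrays. SOS2, a protein kinase of the salt overly sensitive pathway, was called at 0.22 ± 0.08 (adjusted p = 0.0473). It lost its call in 13 of the 22 alternatives, among them leaving out any of 8 arrays (0.18 to 0.22).

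Both aquaporin probe sets fell, where 24% of all probe sets did. Aqp2 read 11.14, 11.05 and 11.16 in the controls and 10.33, 10.28 and 10.23 under salt (log2 −0.84 ± 0.10, adjusted p = 4.86e-05). TIP, a tonoplast aquaporin gene, fell by 0.44 ± 0.14. Its call was lost without normalization and when 1 of 3 arrays was left out, at −0.39 (adjusted p = 0.0709) without control replicate 1, and at −0.33 (adjusted p = 0.0903) and −0.40 (adjusted p = 0.064) without salt replicate 1 or 3.

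Of the 12 probe sets of compatible solutes, 6 rose and 1 fell, where 23.3% and 24% of all probe sets did. The median was 0.26. After GolS-1 came transport of proline: ProT1 went from 9.84, 10.03 and 9.84 to 10.85, 10.81 and 10.78 (log2 0.91 ± 0.08, adjusted p = 2.58e-06) and ProT2 from 7.68, 7.81 and 7.37 to 8.66, 8.60 and 8.09 (log2 0.83 ± 0.15). INS-1P, the inositol-1-phosphate synthase that starts inositol synthesis, rose by 0.64 ± 0.08 from between 10.81 and 10.91 to between 11.42 and 11.54. IMP1, inositol monophosphatase, which takes the next step, was not called at −0.09 ± 0.14. PRO1, of proline synthesis, was not called on either of its probe sets, the stronger at 0.06 ± 0.15.

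Sucrose transport and carbohydrate breakdown held 25 probe sets, of which 9 rose and 4 fell, against 23.3% and 24% of all probe sets. The median was 0.12. BMY3, a β-amylase gene of starch breakdown, went from 8.69, 8.60 and 8.32 to 10.04, 9.77 and 10.20 (log2 1.47 ± 0.13), and the hexose transporter gene HT2 from 10.13, 10.24 and 10.07 to 11.47, 11.44 and 11.87 (log2 1.44 ± 0.13). The invertase genes Wiv-1 and AI rose by 0.80 ± 0.19 and 0.60 ± 0.10. SPS, sucrose phosphate synthase, rose by 0.51 ± 0.07, a call lost without normalization between arrays. The sucrose synthase gene sus3 was not called at 0.17 ± 0.11. In starch synthesis 1 of 3 probe sets rose and 2 fell: of the ADP-glucose pyrophosphorylase genes, the large subunits AgpL1 and AGPL3 fell by 0.76 ± 0.11 and 0.70 ± 0.10, and the small subunit AGP-S2 rose by 0.57 ± 0.13. All 3 calls were lost without normalization.

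Of the 6 polyamine synthesis probe sets, which stand for 3 genes, 5 rose, with a median of 1.00. Over the array 23.3% of probe sets rose and 24% fell. The arginine decarboxylase gene adc1 had 4 of these probe sets, and that with the largest change went from 9.11, 8.61 and 9.12 to 10.29, 10.53 and 10.77 (log2 1.59 ± 0.16). ADC, the other gene that rose, did so by 0.21 ± 0.08, a call that 12 alternatives did not give, among them leaving out any of 10 arrays (0.18 to 0.24). ODC, ornithine decarboxylase, which reaches putrescine by the other route, was not called at 0.04 ± 0.13. Among SnRK1 and carbon metabolism regulators 3 of 6 rose and 2 fell. Besides SNF4, PPCK1 went from 7.56, 7.35 and 6.95 to 9.55, 9.74 and 9.88 (log2 2.44 ± 0.17, adjusted p = 6.97e-07), while its relative PPCK2 fell by 0.43 ± 0.10. SNF1, the catalytic subunit of SnRK1, rose by 0.48 ± 0.12, and GAL83, its β subunit, was not called at 0.04 ± 0.10. The calls of PPCK2 and SNF1 were lost without normalization between arrays.

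Changes of signalling kinases and calcium sensors were small. Of 17 probe sets 6 rose and 4 fell, shares not far from the 23.3% and 24% of the array, the median was −0.01, and 0 rose or fell 2-fold. Wfi1, an NADPH oxidase gene, rose by 0.76 ± 0.11 from between 10.35 and 10.43 to between 11.01 and 11.25. The stress-activated kinase gene MPK3 rose by 0.46 ± 0.12 on the probe set named here, and the calcium-dependent kinase gene CDPK1 fell by 0.33 ± 0.07; both calls were lost without normalization.

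Gibberellin, expansin, xyloglucan and cell cycle genes had more falls than rises. Of the 8 gibberellin probe sets, 0 rose and 5 fell, with a median of −0.67, where 24% of all probe sets fell. The 20-oxidases, which make the precursors of active gibberellins, fell most: GA20OX1 went from 8.21, 8.10 and 8.01 to 5.93, 5.48 and 5.59 and fell by 2.44 ± 0.22 (adjusted p = 5.43e-06), and 20ox-3 went from 6.56, 6.55 and 6.78 to 4.05, 4.22 and 4.69 and fell by 2.31 ± 0.19, a mean under salt in the lowest 10% of the array. GAI, a DELLA repressor of gibberellin response, fell by 1.04 ± 0.15, with no overlap between 7.38 to 7.80 in the controls and 6.35 to 6.83 under salt. SPY, a negative regulator that glycosylates other proteins, was not called at 0.08 ± 0.11.

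Of 15 auxin response probe sets 0 rose and 4 fell, with a median of −0.37, a share of falls near the 24% of all probe sets. The 15 probe sets stand for 8 genes, and with 1 probe set per gene 0 rose and 4 fell. IAA16 and IAA27, repressors of the Aux/IAA family, fell by 1.24 ± 0.13 and 1.17 ± 0.15 on 1 probe set each, while another probe set of each gene was not called, and the IAA27 probe set that fell can also pick up related transcripts. RSI-1, a gene induced by auxin in lateral roots, went from 11.37, 11.26 and 11.27 to 10.17, 10.28 and 10.05 (log2 −1.13 ± 0.14, adjusted p = 6.17e-05). It is also 1 of the 9 root markers above.

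Expansins, which loosen the wall as cells grow, held 13 probe sets, of which 2 rose and 8 fell (median −0.69). Over the array 23.3% of probe sets rose and 24% fell. The largest fall was that of exp9, from 10.35, 10.20 and 10.38 to 7.75, 8.10 and 7.86, which is 5.3-fold (adjusted p = 6.86e-08). EXP12, EXP2 and exp18 fell by 1.28 ± 0.28, 1.08 ± 0.19 and 1.00 ± 0.12. EXPA10 went the other way, from 7.81, 7.86 and 8.04 to 9.66, 10.02 and 9.74 (log2 1.90 ± 0.17, adjusted p = 4.26e-06). The expansin with the strongest signal, exp11, was not called at −0.10 ± 0.15.

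Xyloglucan transglycosylases and glucanases held 20 probe sets, of which 4 rose and 12 fell (median −0.60). XTH16, which cuts and rejoins xyloglucan, was called lower on 3 probe sets. The strongest of them read 12.93, 12.65 and 13.02 in the controls and 10.30, 10.62 and 10.96 under salt and fell by 2.24 ± 0.15, and the largest fall among them was 2.76 ± 0.12. LeXTH9 fell by 2.02 ± 0.18, and the endo-β-1,4-glucanase genes cel7 and cel5 by 2.30 ± 0.11 and 1.07 ± 0.18. Xegip, an inhibitor of xyloglucan-cutting glucanases, rose from 11.75, 11.74 and 11.72 to 12.92, 12.96 and 13.10 (log2 1.26 ± 0.07, adjusted p = 2.26e-07). Among 21 other cell wall probe sets 3 rose and 6 fell, where 23.3% and 24% of all probe sets did. LEXYL2, a β-xylosidase gene, fell by 1.64 ± 0.15. In the β-galactosidase family TBG4 went from between 9.60 and 9.77 to between 12.00 and 12.31, TBG3 rose by 0.88 ± 0.17 and TBG1 fell by 0.76 ± 0.14.

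Of 13 cell cycle probe sets 2 rose and 8 fell, where 23.3% and 24% of all probe sets did, with a median of −0.50. PCNA, the sliding clamp of DNA replication, went from 9.81, 9.89 and 10.05 to 8.19, 8.39 and 8.26 and fell by 1.64 ± 0.14 (adjusted p = 2.69e-06). CDKB2, a kinase of the G2-to-M transition, fell by 1.43 ± 0.13, and the cyclin CycA1 by 1.05 ± 0.10. The fall of CycB2 at 0.93 ± 0.25 came from overlapping groups, 6.41, 5.87 and 6.79 in the controls and 5.28, 5.95 and 5.06 under salt, and turned to a rise of 0.69 in the authors' deposited second set of values. The main rise was that of krp2, an inhibitor of cyclin-dependent kinases, from 8.70, 8.84 and 8.85 to 10.40, 10.32 and 10.59 (log2 1.64 ± 0.09, adjusted p = 1.47e-07). The A-type kinase gene cdc2A-2 was not called at 0.02 ± 0.08. The lower summed signal of the dividing tissue markers, given above, is made in part of these same genes.

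Photosynthesis genes changed by small amounts. Of 9 probe sets 0 rose and 4 fell, with a median of −0.22, against a fall of 24% of all probe sets. CAB5, a chlorophyll a/b-binding protein gene, went from 13.14, 13.04 and 13.07 to 12.43, 12.29 and 12.24 (log2 −0.76 ± 0.17, adjusted p = 0.00324), and CAB4 fell by 0.39 ± 0.07, a call lost without normalization. PSBR and psaD, of the photosystems, were not called at 0.06 ± 0.06 and −0.21 ± 0.09. The part in these falls of the lower summed signal of the green tissue markers was not tested.

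Carotenoid and isoprenoid synthesis, which feeds ABA and gibberellin, went both ways, with 5 of 20 probe sets higher and 8 lower (median −0.17). Over the array 23.3% were higher and 24% lower. Early cytosolic steps fell: HMGR, 3-hydroxy-3-methylglutaryl-CoA reductase, went from between 8.86 and 9.14 to between 7.54 and 7.77 and fell by 1.35 ± 0.15, and FPPS1, farnesyl diphosphate synthase, fell by 1.15 ± 0.13. In the plastid, Psy1, the phytoene synthase at the entry to carotenoids, rose by 1.35 ± 0.14 on 1 probe set, while its other probe sets were not called. CrtR-b1, a β-carotene hydroxylase gene, went from 8.62, 8.66 and 8.49 to 10.55, 10.46 and 10.28 (log2 1.84 ± 0.10, adjusted p = 1.69e-07). CRTL-E-1, a lycopene ε-cyclase gene of the lutein branch, fell by 1.05 ± 0.14, and the β-cyclase gene LCY1 was not called at −0.19 ± 0.10.

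Phenylpropanoids were divided by branch. Of 9 probe sets 3 rose and 4 fell, where 23.3% and 24% of all probe sets did. The flavonoid genes fell, with CHS2 going from 10.39, 10.41 and 10.71 to 8.61, 8.27 and 8.26 and DFR from 7.38, 7.65 and 8.14 to 5.55, 5.89 and 5.75. The hydroxycinnamoyl transferase genes THT1-3 and THT7-1, which join phenolic acids to tyramine, rose by 1.27 ± 0.13 and 1.16 ± 0.14.

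Of 25 probe sets of antioxidant enzymes 7 rose, 4 fell and 14 were not called, with a median of −0.08, so that the group as a whole was near the shares of the array. FESOD, iron superoxide dismutase, gave unlike values on its 2 probe sets. The 1 with the larger change read 7.94, 8.41 and 7.68 in the controls and 11.98, 11.80 and 11.53 under salt (log2 3.76 ± 0.19, adjusted p = 9.75e-08). The other, with the stronger signal, read 12.40, 12.48 and 12.70 and 12.20, 12.32 and 12.31 (log2 −0.25 ± 0.09), a call that 11 alternatives did not give. The probe sets thus disagree on the direction of the gene. AOX1a, the alternative oxidase of mitochondria, rose by 0.96 ± 0.07 from between 11.26 and 11.33 to between 12.22 and 12.30, the copper-zinc superoxide dismutase gene SODCC.1 by 0.73 ± 0.08 and the glutathione peroxidase gene GPXle-1 by 0.69 ± 0.09. The thioredoxin gene CITRX fell by 1.19 ± 0.11. The catalase genes cat1 and CAT2 were not called at −0.21 ± 0.09 and −0.06 ± 0.07.

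Of 10 heat shock probe sets 6 rose and 2 fell, where 23.3% and 24% of all probe sets did, with a median of 0.69. The mitochondrial small heat shock protein gene MTSHP read 8.29, 8.25 and 8.71 in the controls and 9.55, 9.68 and 9.64 under salt (log2 1.20 ± 0.21, adjusted p = 0.000562). HSP17-6 and ER-SHSP, also small heat shock genes, rose by 0.99 ± 0.15 and 0.92 ± 0.23. HSP17.4 went from 6.75, 6.45 and 7.09 to 7.83, 8.10 and 7.68 (log2 1.11 ± 0.37, adjusted p = 0.027) and lost its call without control replicate 1 or 2 or salt replicate 1 or 2, at 0.95 to 1.12. HSC80, a constitutive chaperone gene of the HSP90 family, was not called at 0.09 ± 0.07. The 4 markers of heat or wounding at harvest, 3 of them in this list, had a summed intensity of 10660 to 11730 in the controls and 13880 to 14780 under salt, with 3 higher and 0 lower; their part in these rises was not tested.

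Of 15 pathogenesis-related probe sets 6 rose and 3 fell, where 23.3% and 24% of all probe sets did, with a median of 0.09. The chitinase genes CHI17 and CHI14 rose, CHI14 from 7.11, 7.14 and 6.74 to 8.88, 8.69 and 8.70 (log2 1.76 ± 0.14), and TSI-1 by 1.25 ± 0.21. The subtilases P69B and P69A fell by 1.51 ± 0.32 and 1.15 ± 0.19. GluB and CHI9, a basic glucanase and a chitinase gene with strong signals, were not called at −0.02 ± 0.09 and 0.18 ± 0.09.

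Nutrient transport and root peroxidases held 14 probe sets, of which 1 rose and 8 fell (median −0.62). Over the array 23.3% of probe sets rose and 24% fell. The peroxidase cevi19, on a probe set that related transcripts can reach, went from 10.99, 11.24 and 11.14 to 9.37, 9.29 and 9.57 and fell by 1.72 ± 0.10 (adjusted p = 2.31e-07). PT2, a phosphate transporter gene, fell by 1.56 ± 0.30 from 9.53, 10.38 and 9.38 to 8.49, 7.70 and 8.40, with the largest standard error of the list. FER, the transcription factor of iron uptake in roots, fell by 1.05 ± 0.10, and the peroxidase gene CEVI-1 by 1.07 ± 0.17. CEVI57 was the member that rose, from 5.49, 5.52 and 5.68 to 6.80, 6.55 and 7.97 (log2 1.54 ± 0.28), with 1 salt array well above the other 2. PT1 was not called at 0.01 ± 0.07, nor was TPx1 at −0.15 ± 0.07. The summed root markers were lower under salt, as given above, and their part in these falls was not tested.

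Genes of translation moved by small amounts. All 6 ribosomal protein probe sets fell, with a median of −0.32 and 0 at 2-fold. Over the array 23.3% of probe sets rose and 24% fell. rpl38 fell by 0.58 ± 0.08, RPS25 by 0.34 ± 0.07 and RPL8 by 0.32 ± 0.08. The calls of all 6 were lost without normalization between arrays, and those of RPL3 (−0.21 to −0.18) and RPL37 (−0.20 to −0.17) also with any of 4 arrays removed. Of 7 translation factor probe sets 1 rose, eIF-5A1 at 0.40 ± 0.10, and was likewise lost. Of 7 14-3-3 probe sets 0 rose and 3 fell, none of them 2-fold. Of 7 metallothionein probe sets 0 rose and 2 fell, with MT3 going from 11.44, 11.51 and 11.33 to 10.41, 10.36 and 10.52 (log2 −0.997 ± 0.14, adjusted p = 0.000177).

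**Figure D3:**
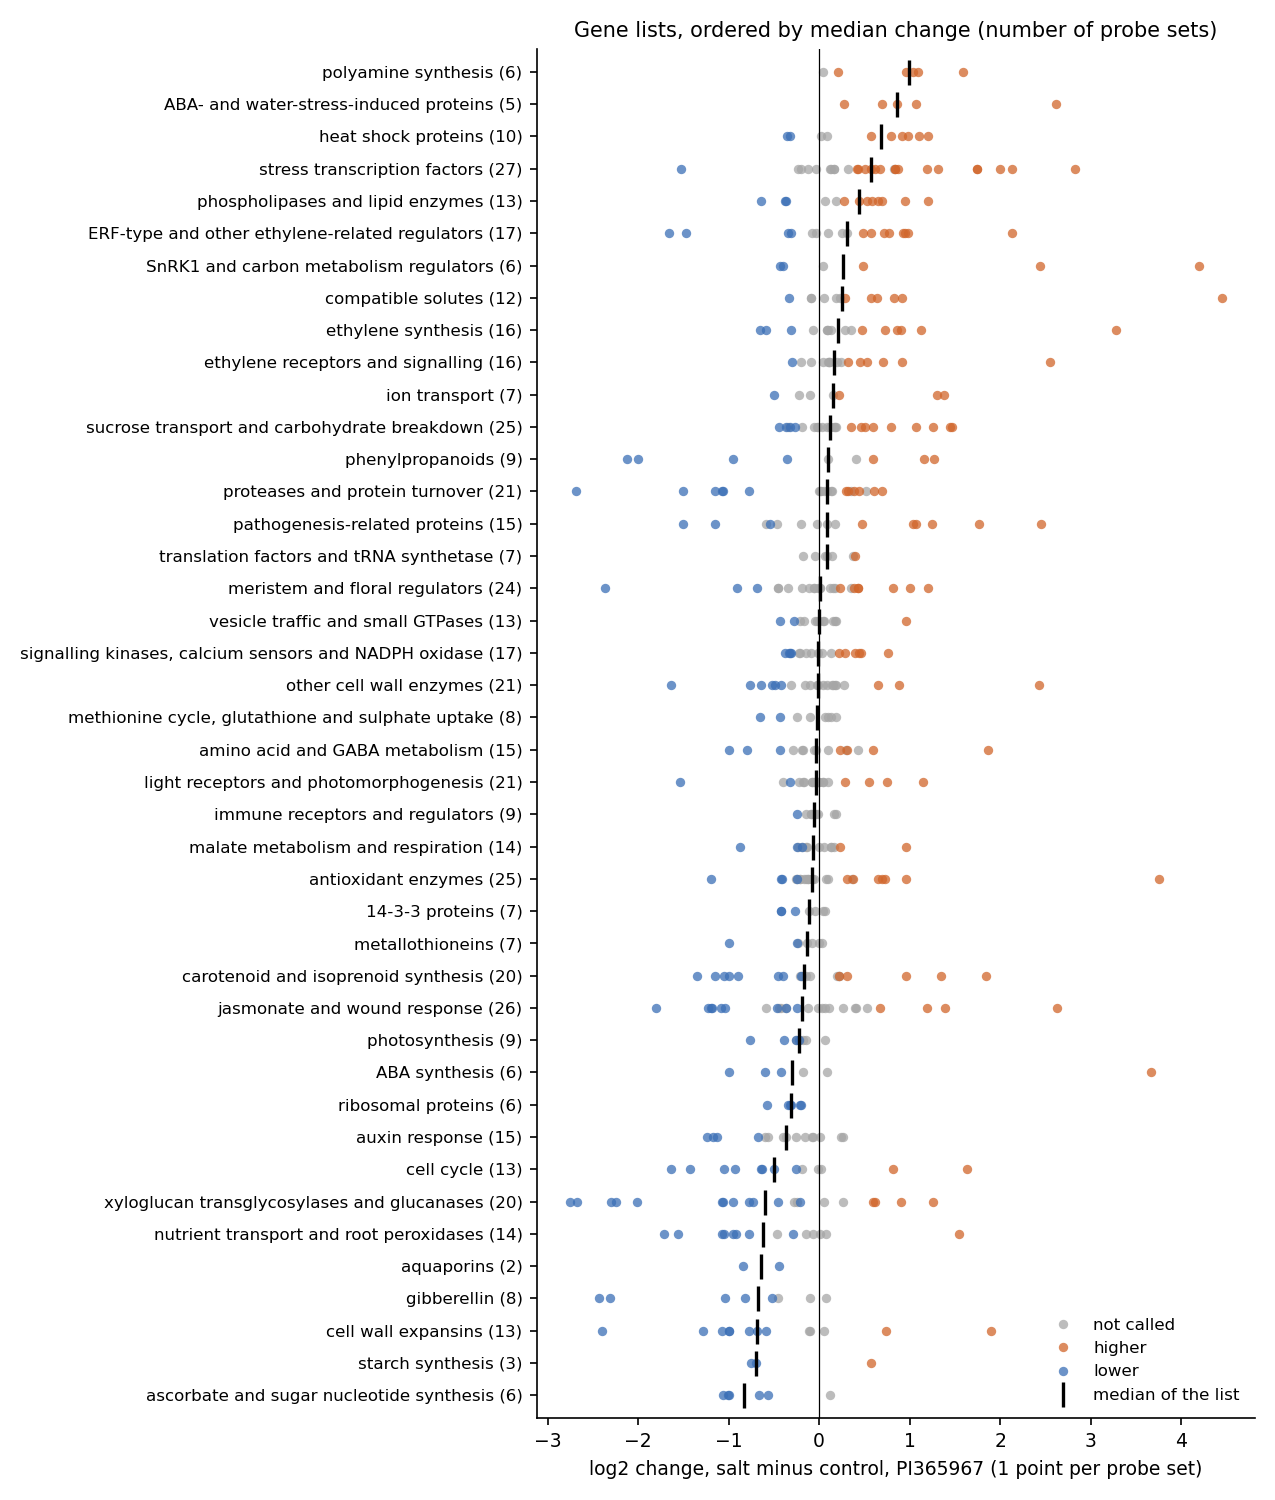
Change of every member of the 42 gene lists in PI365967, ordered by the median of the list. The x axis is the log2 change, salt minus control, each point 1 probe set coloured by its call (higher, lower or not called), and each black bar the median of the list. The medians run from −0.83 for ascorbate and sugar nucleotide synthesis to 1.00 for polyamine synthesis.

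To see where the response of PI365967 differed from that of the cultivar, the salt effect in Moneymaker was subtracted from that in PI365967 and the difference tested in the same fit. It was called for 1337 of 10101 probe sets (13.2%), above 0 for 621 (6.15%) and below 0 for 716 (7.09%). The median standard error of this difference was 0.16, against 0.11 for the salt effect itself. Sequence differences between PI365967 and the array's probes could change its signal. Their part in the differences between genotypes was not tested.

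Among the ion transport genes, the H+-ATPase gene LHA1 had the largest difference upward. In Moneymaker it read 10.68, 10.73 and 10.64 in the controls and 10.75, 10.90 and 10.66 under salt, a change of 0.09, where PI365967 had 1.30 (difference 1.21 ± 0.13, adjusted p = 0.00027). Its relative LHA2 had a change of −0.51 in Moneymaker and a difference of 0.42 ± 0.10 (adjusted p = 0.0161). NHX1 rose in both, and its difference was not called at −0.29 ± 0.18. LKT1 fell in PI365967 and had a change of 0.84 in Moneymaker (difference −1.33 ± 0.19, adjusted p = 0.00122). The differences of LHA2 and LKT1 were lost without normalization between arrays, and that of LHA2 also with median centring. Aqp2 fell less in PI365967, with a change of −1.40 in Moneymaker (difference 0.57 ± 0.14, adjusted p = 0.0264), a call that was lost without normalization, with median centring and on leaving out any of 5 arrays (0.51 to 0.58).

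Among compatible solutes, 4 of 12 differences were called, all above 0, where 13.2% of all differences were called and 6.15% lay above 0. ProT2 had a change of 0.03 in Moneymaker (difference 0.80 ± 0.22, adjusted p = 0.0349), INS-1P of −0.09 (difference 0.73 ± 0.12, adjusted p = 0.00264) and IMP1 of −0.80 (difference 0.72 ± 0.20, adjusted p = 0.036). The fourth was IMP3, another inositol monophosphatase gene. The calls of all 4 were lost without normalization between arrays, where the values of ProT2, INS-1P and IMP1 were 1.105, 0.983 and 1.055. That of ProT2 was also lost on leaving out any of 9 arrays (0.67 to 0.82), and that of IMP1 with any of 8 (0.59 to 0.73) and with the replicate number as a block (adjusted p = 0.0511). PPCK1 rose more in PI365967, with 1.43 in Moneymaker (difference 1.01 ± 0.24, adjusted p = 0.0191), whereas the differences of GolS-1 and SNF4, at −0.08 ± 0.38 and 0.23 ± 0.20, were not called.

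Several genes of the wall lists and of the list of nutrient transport and root peroxidases had a salt effect above that in Moneymaker. EXP5 read 11.04, 10.78 and 11.01 in the PI365967 controls and 10.30, 10.10 and 10.11 under salt, a change of −0.77 against −2.25 in Moneymaker (difference 1.47 ± 0.15, adjusted p = 0.00022). EXP1 changed by −0.69 against −2.03 (adjusted p = 0.00188) and XET2, a xyloglucan transglycosylase gene, by −0.78 against −2.02 (adjusted p = 0.0388). The call of the fall of EXP1 in PI365967 was lost without normalization, and that of XET2 without control replicate 1 or salt replicate 2, at −0.65 (adjusted p = 0.0809) and −0.54 (adjusted p = 0.0889). The peroxidase gene TPX2 gave the largest difference upward among named genes: it went from 9.57, 9.23 and 9.27 to 8.42, 9.29 and 8.95 in PI365967, a change that was not called, and fell by 2.96 in Moneymaker, from 10.02, 10.20 and 10.20 to 7.13, 7.08 and 7.34 (difference 2.49 ± 0.26, adjusted p = 0.000268). PT2 and cevi19 differed by 1.52 ± 0.43 and 1.15 ± 0.14 (adjusted p = 0.0401 and 0.000553), and CEVI57, which rose in PI365967, by 1.35 ± 0.39 (adjusted p = 0.0441). The difference of PT2 was lost on leaving out any of 8 arrays (1.24 to 1.62), that of XET2 with any of 9 (1.04 to 1.29) and that of CEVI57 with any of 9 (1.28 to 1.43). With the replicate number as a block, the differences of PT2 and CEVI57 were not called (adjusted p = 0.0635 and 0.0561). The called difference of 1 wall gene lay below 0, on 1 of the XTH16 probe sets at −0.69 ± 0.17, a call that was lost without normalization and on leaving out any of 3 Moneymaker arrays.

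Several genes of ethylene, jasmonate and heat shock response rose less in PI365967. AOS rose by 2.63 against 4.92 in Moneymaker (difference −2.29 ± 0.27, adjusted p = 0.000468), and loxD by 1.39 against 2.59 (−1.19 ± 0.17, adjusted p = 0.0011). ACS6 rose by 0.72 against 2.95 (−2.22 ± 0.35, adjusted p = 0.00222), ACS3 by 1.13 against 2.34, and the ERF-type genes PTI5 and EREB by 0.71 and 0.98 against 2.77 and 2.94. The rise of PTI5 in PI365967 was not called without control replicate 1, at 0.58 (adjusted p = 0.0577). The differences of loxD and ACS3 were lost without normalization between arrays. HSP17.4 differed by −2.95 ± 0.52 (adjusted p = 0.00433), from a rise of 4.05 in Moneymaker. LysRS, a lysyl-tRNA synthetase gene, read 9.60, 9.74 and 9.47 in the PI365967 controls and 10.04, 9.81 and 10.08 under salt, which was not called, against a change of 3.11 in Moneymaker (difference −2.73 ± 0.31, adjusted p = 0.000368). The differences of ER24 and AREB1 were −1.85 ± 0.32 and −0.95 ± 0.17 (adjusted p = 0.00426 and 0.00429), the latter lost without normalization.

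The gibberellin oxidase gene 20ox-3 fell further in PI365967, by 2.31 against 0.40 in Moneymaker (difference −1.92 ± 0.26, adjusted p = 0.00103). HMGR fell by 1.35 against 0.44 (adjusted p = 0.0193), a difference lost without normalization. Several of the genes with the largest changes in PI365967 showed no called difference, among them NCED1 (0.08 ± 0.26), ACS2 (−0.34 ± 0.26), DREB1 (−0.54 ± 0.28), exp9 (0.25 ± 0.16) and GA20OX1 (0.41 ± 0.32). With standard errors of 0.16 to 0.32, these values do not show that the responses were alike.

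**Figure D4:**
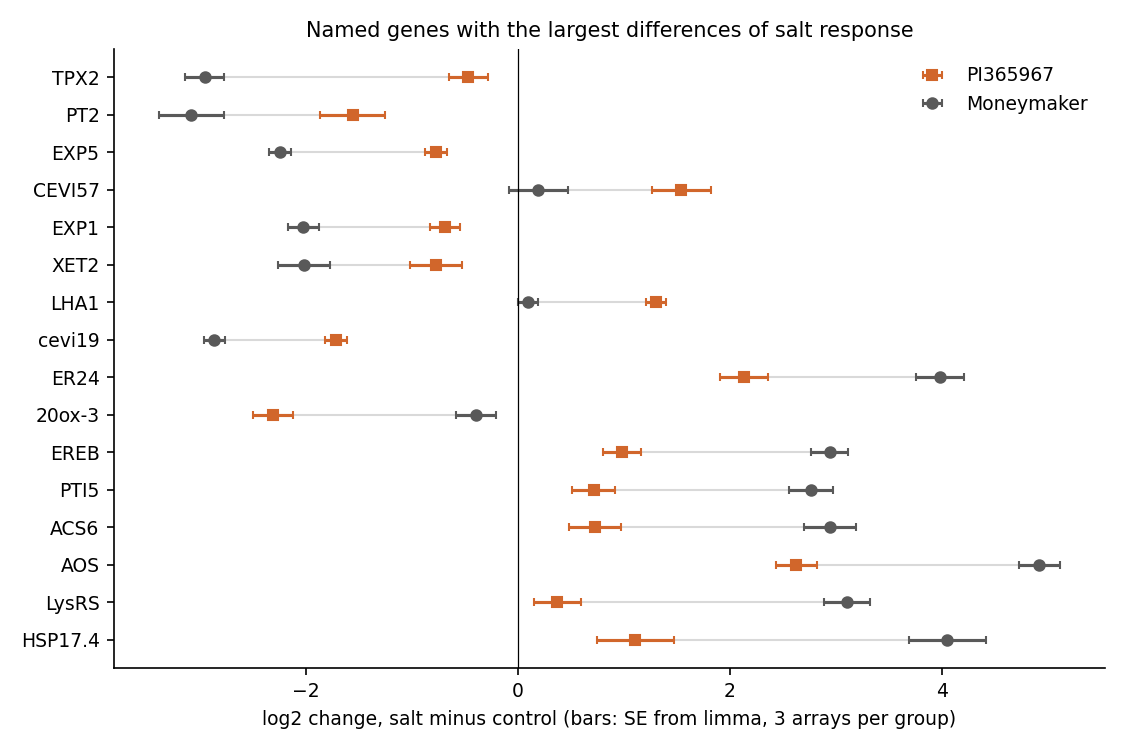
Salt response of the 16 named genes with the largest called differences between genotypes, 8 each way. The x axis is the log2 change, salt minus control, squares are PI365967, circles Moneymaker, and bars the standard error from limma with 3 arrays per group. TPX2 at the top has the largest difference upward (2.49) and HSP17.4 at the bottom the largest downward (−2.95).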

How the data were processed

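Signal was measured in 12 biotin-labelled Affymetrix tomato arrays, each hybridized with RNA of 3 pooled plants. The intensities per probe set are those the authors deposited. The array medians ran from 332.8 to 633.2, and the steps of background correction, probe summary and scaling were not given in the sources used here. A second set of values for PI365967, per the file headers on a log2 scale, and the authors' SAM table with its score and q-values were deposited beside it and served as alternatives. Another 6 per-sample columns, of the second Moneymaker set, were not used.

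Values were taken as log2(intensity + 16) and quantile normalized over the 12 arrays, with 108 control probe sets left out. The fit was limma 3.58.1 (R 4.3.3) with a mean per group, 8 residual and 3.11 prior degrees of freedom, two-sided, and Benjamini-Hochberg adjustment over 10101 probe sets. Precision is limited by having 3 arrays in each group. On simulated data with changes of 0.5 and 1 log2 unit, the fit recovered 53% and 85% of the 100 altered probe sets of each size for the PI365967 salt effect. There were 8 false calls, 5.48% of the calls. Far more probe sets were called in the real data (4781), and the adjusted p depends on that share. The recovery therefore need not hold for the real data.

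Gene names came from the platform annotation, which can be old. It annotates 909 probe sets, 702 of them with a gene name (626 distinct names), and 885 Entrez IDs matched RefSeq. Changes in the remaining probe sets have no gene name here. Members and gene lists were chosen with earlier results of these data known, and 12 of the 42 lists were added when the annotation was read. Named genes are the 15 largest rises and the 15 largest falls with groups that do not overlap (1 probe set per gene, that with the strongest mean signal), up to 5 called and 2 uncalled members per list, the 8 largest differences each way between genotypes, and the 2 largest changes each way without a name. ACO4, ACO6, IMP3, RPL3, RPL37, ADC, GABA-TP3, eIF4E1, PLDa3 and further probe sets of XTH16 and FESOD were added after their values were seen, as was the lowest 10% of group means (under 4.96) as the mark of a weak signal. Alternatives changed the normalization, the pseudocount (1 or 64), the filter on signal, the variance model, the block, the threshold, the probe sets and the arrays used. Leaving out the RPTR probe sets was chosen after seeing the data.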

Additional observations from a re-analysis of the deposited data

Results flagged for a closer look

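The named genes below had a salt effect in PI365967 that differed from that in Moneymaker, by the test of the difference itself in limma (adjusted p under 0.05 over all probe sets). Values are differences of log2 changes, PI365967 minus Moneymaker. Of the 66 differences, 15 kept their call under all 20 alternatives that hold both genotypes, 45 lost it without normalization between arrays, 31 lost it when some 1 array was left out, and 12 with the replicate number as a block, namely those of PT2, IMP1, CEVI57, XTH1, TBG6, BMY3, Rab1A, ERF2, TSW12, gad2, NML2 and CDPK1. Median centring ended the calls of TBG6, Aqp2, Rab1A, EIL2, XTH1, EXPA10, LHA2, CEVI57 and LesAffx.48174.1.S1_at. It also ended those of SAM3 and gad2, at 0.16 (adjusted p = 0.453) and 0.17 (adjusted p = 0.558). The differences of eIF4E1, PLDa3 and XTH16 below are not among the 66. They were lost without normalization, and that of eIF4E1 also with the block.

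Among heat shock genes HSP17.4 gave −2.95 and MTSHP −1.35. Of the translation genes LysRS gave −2.73 and eIF4E1, a cap-binding translation factor gene, 0.43. In jasmonate synthesis AOS gave −2.29 and loxD −1.19, with MYC2 at −0.67. In ethylene synthesis ACS6 gave −2.22, ACS3 −1.21 and ACS1A −0.56, and among its regulators PTI5 gave −2.05, EREB −1.96, ER24 −1.85 and ERF2 −0.47. The gibberellin oxidase gene 20ox-3 gave −1.92. Above Moneymaker lay EIL2 at 0.38 and SAM3 at 0.34.

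Among transcription factors and induced proteins, THM16 gave −1.11, AREB1 −0.95, JA2 −0.84, LE16 −0.85 and TSW12 −0.34. HY5, a light-response bZIP gene, lay above at 0.58. Of the COP1-interacting protein genes, CIP1 gave −0.54 and CIP2a 0.73. KN1, a homeobox gene of the meristem, gave 0.56 and DEM2 gave −0.49.

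Of the lipid and signalling genes, the phospholipase D genes PLDb1 and PLDa3 stood at −1.61 and 0.82, DGK1, a diacylglycerol kinase gene, at −1.46, MPK3 at −1.34 and CDPK1 at −0.34. GAL83 gave −0.55, PPCK2 −0.71, AOX1a −1.26, gdh1 −0.84, Rab1A −0.35 and NML2 −0.46, whereas PPCK1 gave 1.01 and gad2, glutamate decarboxylase, 0.37.

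In ion and water transport LHA1 gave 1.21, LHA2 0.42, Aqp2 0.57 and LKT1 −1.33. Solute and sugar genes were INS-1P at 0.73, IMP1 at 0.72, ProT2 at 0.80, AI at 0.61, AgpL1 at 0.64 and BMY3 at −0.68.

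Among wall genes, expansins were EXP5 at 1.47, EXP1 at 1.34, EXP2 at 1.04 and EXPA10 at 0.80. Other wall genes were XET2 at 1.24, LeXTH9 at 0.97, XTH1 at 0.67 and TBG6 at 0.66, while 1 of 3 XTH16 probe sets lay below at −0.69. In the list of nutrient transport and root peroxidases, TPX2 stood at 2.49, PT2 at 1.52, CEVI57 at 1.35 and cevi19 at 1.15. The cell cycle genes were CDKB2 at −0.78 and CycA1 at −0.65, the isoprenoid genes HMGR at −0.91 and Psy1 at 0.86, and the flavonoid gene CHS2 stood at −1.07. The unnamed probe set LesAffx.48174.1.S1_at gave 1.34, but 0.27 (adjusted p = 0.796) with a pseudocount of 1. Its call was also lost on leaving out single arrays, for example at 1.21 (adjusted p = 0.0811) without PI365967 salt replicate 1.

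One control probe set, left out of the fit, moved as well. That of 25S ribosomal RNA read 5.56 to 5.95 on the PI365967 control arrays and 5.99, 6.44 and 7.36 on the salt arrays, a difference of 0.82 with no test, and 1.91 in Moneymaker. The 17S probe set overlapped between the PI365967 groups at −0.14. The part of ribosomal RNA in any result was not tested.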

How the results depend on the processing

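Without normalization between arrays, the calls for the PI365967 salt effect numbered 1983 (1057 higher, 926 lower), against 4781 in the normalized data, and those for the difference between genotypes 292, against 1337. The count with at least a 2-fold change was then 1051, against 1036. The calls were 49.2% higher with quantile normalization, 53.3% with none and 44.9% with median centring, and the median change of all probe sets moved to 0.02 with none and to −0.05 with centring. At an adjusted p under 0.01 the difference between genotypes was called for 507 probe sets. The remaining alternatives gave counts within 1.5 times, but not all of them covered the same 10101 probe sets. With the authors' second values 5400 of 8074 probe sets were called. In the authors' SAM results, at a q-value under 5%, the calls were 6475 of 8074. The main fit called 4781 of 10101, a smaller share, but of a larger set of probe sets. Its calls among the 8074 alone were not counted. The fit to the second values held only the 6 PI365967 arrays, and SAM is another test. These shares therefore cannot be compared directly, and the part that processing has in them was not tested. Leaving out each array in turn gave 4158 to 4825 calls (2044 to 2371 higher, 2114 to 2472 lower), 1018 to 1064 of them 2-fold, and 929 to 1376 differences. Same-numbered PI365967 control and salt arrays did not deviate together (Pearson's r −0.03, −0.07 and −0.13 across probe sets), and those of Moneymaker stood at 0.03, 0.08 and 0.11. Same-numbered control arrays of the 2 genotypes stood at 0.12, 0.13 and 0.16, and differently numbered ones at −0.13 to 0.01. Same-numbered salt arrays of the 2 genotypes stood at −0.04, 0.06 and 0.04. Values of similar size also occurred between differently numbered arrays, as for PI365967 control replicate 3 and salt replicate 2 (0.15). The replicate block gave 4735 calls and 1199 differences, and ended the call of 12 named differences. The authors' deposited SAM table listed 3462 higher and 3013 lower at a q-value under 5%, of 8074 probe sets.

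Of the 189 named probe sets called, 129 kept their call under all 22 alternatives, 51 lost it without normalization, 26 when some 1 array was left out, 7 with median centring, 7 in the authors' second values (of 183 held there) and 6 with the replicate block. CycB2 reversed to 0.69 (adjusted p = 3.03e-05) and MT4, on the probe set that can pick up related transcripts, to 0.0085 (adjusted p = 0.889), both in the authors' second values, and the cause was not tested. Without normalization, members called lower numbered 4 of 13 in the cell cycle, 1 of 9 in photosynthesis, 1 of 6 in ABA synthesis and 0 of 6 among ribosomal proteins. Signal over background limits the weak probe sets: 58 of the 63 RPTR probe sets lay under 4.96 in both groups.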

Other observations

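Of the 6 probe sets of ascorbate and sugar nucleotide synthesis 0 rose and 5 fell, with a median of −0.83, where 24% of all probe sets fell. GMP, GDP-mannose pyrophosphorylase, read 11.14, 10.92 and 11.08 on the control arrays and 10.05, 9.88 and 10.01 on the salt arrays (log2 −1.07 ± 0.08, adjusted p = 1.18e-06), and no arrays overlapped. PMM, phosphomannomutase of the step before, fell by 1.01 ± 0.15 on a probe set that related transcripts can reach, and GLDH, which makes ascorbate in the last step, fell by 0.67 ± 0.09, a call lost without normalization. The 6 probe sets stand for 3 genes.

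Phospholipases and lipid enzymes rose in 8 of 13 probe sets and fell in 3, with a median of 0.44, where 23.3% of all probe sets rose. BCCP, the biotin carrier of plastid acetyl-CoA carboxylase, went from 9.44, 9.41 and 9.67 to 10.96, 10.62 and 10.54 (log2 1.20 ± 0.16), the diacylglycerol kinase gene DGK1 rose by 0.95 ± 0.20 and the phospholipase D gene PLDa1 by 0.65 ± 0.08. PLDb1, of the same family, fell by 0.64 ± 0.16, a call lost without normalization. Fad7, a plastid fatty acid desaturase gene, was not called at 0.18 ± 0.07.

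In amino acid and GABA metabolism 4 of 15 probe sets rose and 3 fell, near the shares of the array, and the 3 GABA transaminase genes gave unlike values. GABA-TP1 read 9.73, 9.84 and 9.51 in the controls and 11.66, 11.49 and 11.53 under salt (log2 1.87 ± 0.14, adjusted p = 1.42e-06), whereas GABA-TP2 went from 12.39, 12.25 and 12.37 to 11.63, 11.25 and 11.73 (log2 −0.80 ± 0.13, adjusted p = 0.000505) and GABA-TP3 was not called at −0.06 ± 0.09. TSB, the tryptophan synthase β subunit gene, fell by 0.99 ± 0.10, and GS2, plastid glutamine synthetase, was not called at −0.19 ± 0.08. In the malate list, 2 of 14 rose and 3 fell, and chMDH, the chloroplast malate dehydrogenase, fell by 0.87 ± 0.17.

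Of 21 probe sets of light receptors and photomorphogenesis 4 rose and 2 fell, where 23.3% and 24% of all probe sets did. Cry1b, a cryptochrome gene, read 9.02, 8.84 and 9.03 in the controls and 7.52, 7.41 and 7.34 under salt and fell by 1.54 ± 0.10, HY5 rose by 0.75 ± 0.08, and CIP2b rose by 1.15 ± 0.09. Of 24 meristem and floral regulators 7 rose and 3 fell, with KN1 falling by 0.91 ± 0.09 and KN4, another knotted-like homeobox gene, rising by 0.82 ± 0.12. TDR4, a MADS-box gene, rose by 1.00 ± 0.14 on a probe set that related transcripts can reach.

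Of 21 proteases 6 rose and 6 fell, where 23.3% and 24% of all probe sets did. Several subtilases fell: beside SBT1, P69A and P69B these were SBT2 and sbt4a, which fell by 1.07 ± 0.11 and 1.06 ± 0.12. In vesicle traffic 1 of 13 rose, Rab1A by 0.96 ± 0.07, and 2 fell. Among 9 immune receptors and regulators 0 rose and 1 fell, and of 8 probe sets of the methionine cycle, glutathione and sulphate uptake 0 rose and 2 fell. The falls of these last 2 lists, those of COI1, GSH2 and CGS, were at most 0.66 in size and were lost without normalization.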
